A study of Mus musculus with 2 samples.

Results

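The H2 genes are the mouse major histocompatibility complex (MHC) genes, and 37 of them with a protein-coding transcript were read in gastrocnemius, the main calf muscle. Members were all genes whose symbol begins with H2- and that have at least 1 protein-coding transcript among the target names of the deposited transcript tables. They are 37 of the 45 genes with an H2- symbol, of 21901 genes with a protein-coding transcript and of 55536 genes in all. By class there were 26 class I genes, 10 class II genes and 1 accessory gene, H2-Ke6. Of the 37, the annotation calls 34 protein coding as genes and 3 (H2-T10, H2-Bl and H2-Ea-ps) polymorphic pseudogenes. All lie on chromosome 17 of genome build mm10.

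The study held 1 group and no contrast between conditions. Total RNA was sequenced from the gastrocnemius of female B6CASTF1/J mice aged 4 days, F1 offspring of a cross between C57BL/6J and CAST/EiJ. There were 2 libraries of 300 ng RNA each, labelled biological replicates 1 and 2 and made from animals numbered 3 and 4. Both carry a single donor record, so whether the animals were littermates is not known, and the spread between these 2 libraries may be partly technical.

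Class I molecules pair a heavy chain with beta-2-microglobulin and show peptides from inside the cell to CD8 T cells, and nearly all nucleated cells carry them. Class II molecules pair an alpha and a beta chain, are loaded in endosomes with the help of the invariant chain and DM, and show peptides to CD4 T cells mainly on dendritic cells, macrophages and B cells. Muscle fibres are known for low class I and no class II at rest. The H2 genes are among the most polymorphic in the mouse, and here transcripts of both parental strains were counted on a single reference genome that represents C57BL/6J.

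The sequences of class I genes are alike in places, and a stretch of the coding exon for the alpha 3 domain is shown for 5 members. Full identity over a read was rarer: of stretches of 100 bases, near the length of a read, H2-K1 shared 0.957% with other genes and H2-D1 3.59%. The longest identical run between these 2 genes was 91 bases. This exon has 276 bases and was found, as exon 4, in 21 of the 26 class I members of the GENCODE M21 transcripts. Bases 100 to 219 of it follow, 5′ to 3′, with bases that differ from H2-K1 in capitals. They lie in mm10 at chr17:33997342-33997461 (minus strand, H2-K1), chr17:35265883-35266002 (plus strand, H2-D1), chr17:35382957-35383076 (plus strand, H2-Q4), chr17:35442366-35442485 (plus strand, H2-Q7) and chr17:36030879-36030998 (minus strand, H2-T23).
H2-K1: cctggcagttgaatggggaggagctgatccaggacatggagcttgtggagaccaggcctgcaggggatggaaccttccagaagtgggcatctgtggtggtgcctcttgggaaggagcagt
H2-D1: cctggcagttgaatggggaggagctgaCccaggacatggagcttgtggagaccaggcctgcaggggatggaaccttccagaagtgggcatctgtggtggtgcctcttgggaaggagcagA
H2-Q4: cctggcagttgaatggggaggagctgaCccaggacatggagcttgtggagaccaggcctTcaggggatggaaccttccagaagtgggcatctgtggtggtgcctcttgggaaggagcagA
H2-Q7: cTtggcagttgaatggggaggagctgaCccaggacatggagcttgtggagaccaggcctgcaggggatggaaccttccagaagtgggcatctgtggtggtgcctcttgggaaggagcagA
H2-T23: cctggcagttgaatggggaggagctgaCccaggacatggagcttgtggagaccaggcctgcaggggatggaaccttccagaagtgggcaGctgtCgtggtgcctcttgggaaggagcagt

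In this window of 120 bases H2-D1 differed from H2-K1 at 2 positions, and H2-Q4, H2-Q7 and H2-T23 each at 3. Over all 276 bases, identity to H2-K1 was 96.0% for H2-D1, 95.3% for H2-T23, 93.5% for H2-Q7 and 92.8% for H2-Q4. Among the 210 pairs of the 21 genes, identity ran from 73.2% to 99.3%, and the highest was that of H2-Q7 and H2-Q6, which differed in 2 of the 276 bases (274 identical).

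The upstream stretches of 3 class I and 2 class II genes are shown to print the motif words that were searched. They were read from RefSeq on GRCm38.p6, which held a start for 31 of the 37 members (22 class I, 8 class II and H2-Ke6) and none for H2-Q1, H2-T10, H2-T24, H2-Bl, H2-Ab1 and H2-Ea-ps. The class I stretches begin 15 bases before a kappa B word and run 80 bases, and the class II stretches are the last 100 bases before the start. Capitals mark GGGGATTCC (kappa B word), TTTCACTTC (interferon-stimulated word), CTAGCAAC (X box word) and CTGATTGG (Y box word), each searched on both strands from 250 bases before each start to 50 after it. The words do not overlap in these stretches. They were chosen after these windows had been read, so their split by class is a description of that choice. The same holds for the counts of members given beside shares of all windows, which are no test of enrichment. H2-Q4 lacks the full kappa B word and is aligned on its first letters.
H2-K1 (chr17:34000394-34000473, minus strand): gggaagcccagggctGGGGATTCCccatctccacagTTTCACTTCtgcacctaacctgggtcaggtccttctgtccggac
H2-D1 (chr17:35262908-35262987, plus strand): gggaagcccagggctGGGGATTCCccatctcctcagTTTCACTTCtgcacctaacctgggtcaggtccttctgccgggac
H2-Q4 (chr17:35379428-35379507, plus strand): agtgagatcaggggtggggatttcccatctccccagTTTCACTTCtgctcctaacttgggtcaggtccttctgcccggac
H2-Aa (chr17:34287824-34287923, minus strand): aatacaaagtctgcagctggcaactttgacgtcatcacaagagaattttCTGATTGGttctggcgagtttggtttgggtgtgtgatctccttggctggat
H2-Eb1 (chr17:34305767-34305866, plus strand): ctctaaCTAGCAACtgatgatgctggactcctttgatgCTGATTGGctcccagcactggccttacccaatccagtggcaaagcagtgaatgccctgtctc

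The kappa B word was in the windows of 4 members, all class I (H2-K1, H2-D1, H2-Q6 and H2-Q7), and in 0.25% of all 32851 RefSeq windows. The interferon-stimulated word was in 7 members, all class I (H2-K1, H2-D1, H2-Q4, H2-Q6, H2-Q7, H2-Q10 and H2-M3), and in 0.505% of all windows. The X box word was in 3 members, all class II (H2-Eb1, H2-Eb2 and H2-Ob), and in 1.32% of all windows. The Y box word was in 17 members of both classes and in 4.1% of all windows. A word is a match of letters and not a measured binding site. Members that share words did not share a level: of the 7 with the interferon-stimulated word, H2-K1 and H2-D1 exceeded 19 TPM in both libraries, while H2-Q6 and H2-Q10 stayed under 1 TPM in both.

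Depth was 30961087 expected counts for replicate 1, against 36246031 for replicate 2. All 10 skeletal muscle markers were detected, led by Acta1 with 11663 TPM in replicate 1 and 13964 TPM in replicate 2, which fits the tissue label. The libraries differed in markers of other tissues. All 7 red cell markers and all 8 neutrophil markers tested were over 2-fold higher in replicate 1, with median log2 ratios (replicate 1 over replicate 2) of 2.47 and 2.43. All 8 liver genes were over 2-fold lower in replicate 1, with a median log2 ratio of -3.35. Over all 17581 genes with a mean of 10 counts or more, 2.73% were over 2-fold higher in replicate 1, 1.02% were over 2-fold lower, and the median log2 ratio was 0.00. In bulk tissue, fewer cells of a type and less RNA per cell cannot be told apart.

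Class I dominated the H2 transcripts, and H2-K1 and H2-D1 dominated class I. TPM (a transcript abundance) scales reads for transcript length and library depth. The 26 class I genes summed to 64.8 TPM in replicate 1, against 53.5 TPM in replicate 2, while the 10 class II genes summed to 11.4 and 6.79 TPM. Class I took 86.9% ± 2.58 of the TPM of both classes (SD, n = 2). Within class I, H2-K1 and H2-D1 together took 76.0% ± 2.06, the T region 13.7% ± 0.95, the Q region 8.35% ± 0.721 and the M region 1.94% ± 0.394. By TPM the order of these 4 class I sets was the same in both libraries.

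Few members reached the level of most protein-coding genes. Detection was set at 1 TPM in each of the libraries, a level that 55.0% of the 21901 genes with a protein-coding transcript reached. Of the 37 members 8 were detected: the class I genes H2-K1, H2-D1, H2-Q4, H2-T22 and H2-T23, the class II genes H2-DMa and H2-Eb1, and H2-Ke6. A further 11 members had a mean of 10 counts or more without passing this level, which makes 19 in all. In gene tables, 10 members were at 0 counts in both libraries.

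**Figure D1:**
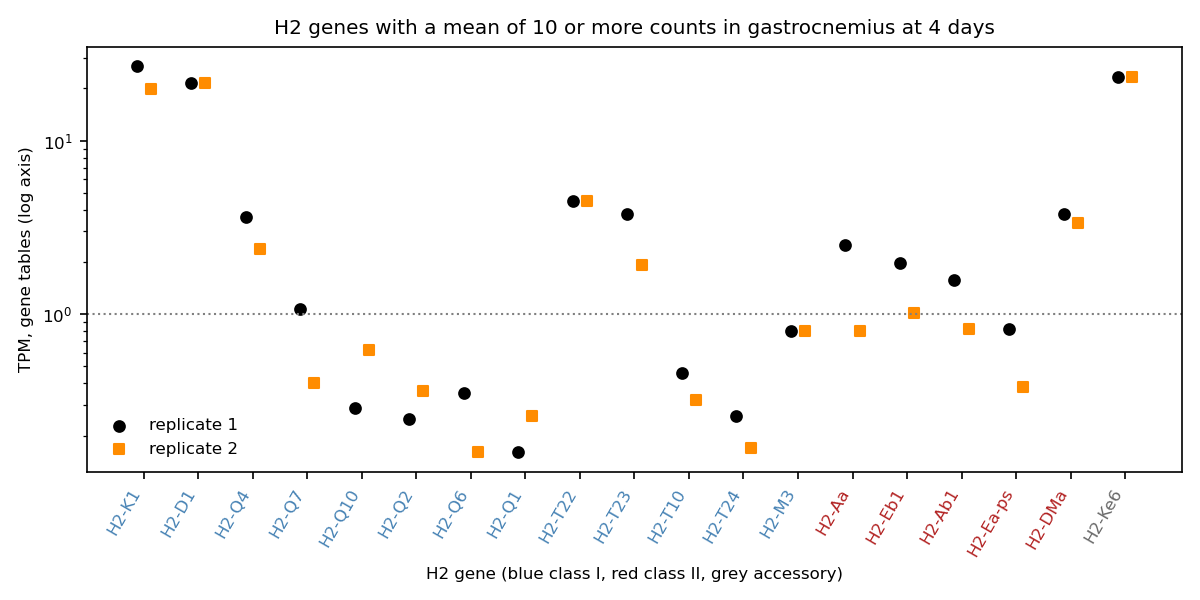
TPM of the 19 H2 genes with a mean of 10 or more counts, in replicate 1 (circles) and replicate 2 (squares), on a log axis, with a dotted line at 1 TPM. H2-K1, H2-D1 and H2-Ke6 sit near or above 20 TPM in both libraries, and the class II chains sit higher in replicate 1 than in replicate 2.

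The classical class I genes H2-K1 and H2-D1 encode the polymorphic chains that present peptide to CD8 T cells. H2-K1 (mm10 chromosome 17, 33996017 to 34000347, minus strand) had 26.9 TPM from 629 expected counts in replicate 1, against 19.9 TPM from 525 in replicate 2. H2-D1 (35262730 to 35267499, plus strand) had 21.5 TPM in both libraries, from 1109 and 1216 expected counts. H2-D1 was therefore alike in both libraries, while H2-K1 stood higher in replicate 1. Their order was not settled: by TPM H2-K1 was 1.25 times H2-D1 in replicate 1 and 0.923 times in replicate 2, and by expected counts it was 0.567 and 0.431 times. Among the 13336 detected genes of any kind, 77.4% had a mean TPM below that of H2-K1 and 75.5% below that of H2-D1.

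The Q region genes encode class I chains of narrower polymorphism, among them the Qa-2 antigens (H2-Q6 and H2-Q7) and the soluble chain H2-Q10, which liver is known to secrete. H2-Q4 led them with 3.62 TPM in replicate 1, against 2.39 TPM in replicate 2, and took 60.1% ± 4.26 of the Q region TPM (SD, n = 2). H2-Q7 had 1.07 and 0.4 TPM from 60.4 and 21.6 expected counts, and H2-Q6 had 0.35 and 0.16 TPM from 19.5 and 5.37 counts. Both Qa-2 genes were thus higher in replicate 1. For H2-Q7 most of this lay in retained-intron transcripts (36.0 and 6.5 counts in replicates 1 and 2), and less in protein-coding ones (24.4 and 15.1). Summed over its transcripts, H2-Q10 had no settled direction in the log2 ratios given further on. It had 0.29 TPM and 23.4 counts in replicate 1 and 0.62 TPM and 32.5 counts in replicate 2. H2-Q2 had 8 and 13 counts and H2-Q1 had 8.1 and 15.6 counts in replicates 1 and 2, with counting intervals of their ratios that include 0.

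The T region holds H2-T23, the Qa-1 chain that shows leader peptides of other class I molecules to natural killer cell receptors, and H2-T22 and H2-T10, ligands of some gamma delta T cells. H2-T22 had 4.49 TPM in replicate 1 and 4.48 TPM in replicate 2, with 216 and 230 expected counts. H2-T23 had 3.77 and 1.93 TPM, from 155 and 88.0 counts. H2-T22 was level between the libraries and H2-T23 was higher in replicate 1. H2-T10 had 0.46 and 0.32 TPM, H2-T24 had 0.26 and 0.17 TPM, and H2-T3, the thymus leukaemia antigen, had 1 and 3 counts in replicates 1 and 2. H2-Bl was listed at 0 counts in both gene tables and at 3.31 and 6.25 counts in the other quantification.

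Of the 12 M region genes only H2-M3, which presents peptides with a formylated start, held a mean of 10 counts, with 0.8 TPM in each library from 30 counts in replicate 1 and 34 in replicate 2. H2-M5 had 11 and 7 counts, H2-M2 had 8 and 0, and H2-M9 had 1 and 0. The remaining 8, H2-M1, H2-M11 and the 6 H2-M10 genes known from the vomeronasal organ, had 0 counts in both libraries and both quantifications, which allows up to 3 counts per library.

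Among the class II chains, H2-Aa and H2-Ab1 make the A molecule and H2-Eb1 the beta chain of the E molecule. H2-Aa had 2.51 TPM and 69 expected counts in replicate 1, and 0.8 TPM and 26 counts in replicate 2. H2-Ab1 had 1.58 and 0.82 TPM, from 47 and 29 counts, and H2-Eb1 had 1.97 and 1.02 TPM, from 45 and 34 counts. All 3 chains were higher in replicate 1. The E alpha gene, H2-Ea-ps, had 21 counts in replicate 1 and 10 in replicate 2 (0.82 and 0.38 TPM). As background, the C57BL/6 haplotype carries a deletion over the promoter of this gene and makes no E alpha chain, hence its name as a pseudogene. Which parental allele gave these reads was not analysed here. H2-Eb2 had 1 and 0 counts.

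DM exchanges peptides on class II molecules in endosomes, and DO restrains DM. H2-DMa, the alpha chain of DM, was the highest class II member with 3.8 TPM in replicate 1 and 3.34 TPM in replicate 2, from 99 and 100 expected counts, nearly level between the libraries. The beta chain genes stood below it: H2-DMb1 had 11.5 and 8.31 counts (0.34 and 0.27 TPM) and H2-DMb2 had 9.47 and 5.69 counts (0.26 and 0.14 TPM). The DO genes were at the floor, with 2 and 2 counts for H2-Ob and 0 in both libraries for H2-Oa. The 3 DM genes thus took 47.0% ± 11.7 of class II TPM (SD, n = 2).

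H2-Ke6 carries an H2 name for its place in the region and encodes an enzyme of steroid and fatty acid metabolism (hydroxysteroid 17-beta dehydrogenase 8), not an MHC chain. It had 23.3 TPM in each library, from 468 expected counts (replicate 1) and 523 (replicate 2), the most even of the abundant members. Of the 8 genes with an H2- symbol and no protein-coding transcript, 2 held a mean of 10 counts or more in the gene tables. These were the pseudogenes H2-T-ps, with 65.8 and 54.8 counts, and H2-K2, with 15.3 and 12.6 counts. Another, H2-Q5, reached that mean only in the other quantification, with 13.5 and 10.4 counts.

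Between the libraries, the class II chains, the Qa-2 genes and H2-T23 stood higher in replicate 1, while H2-D1, H2-T22, H2-DMa and H2-Ke6 were level. Of the 19 members with a mean of 10 counts or more, 4 were over 2-fold apart, all higher in replicate 1, where 3.75% of all 17581 genes tested were over 2-fold apart in either direction. All 4 were among the 13 members with a mean of 10 to under 100 counts, a range in which 10.7% of all genes were over 2-fold apart and 7.94% were over 2-fold higher in replicate 1. None of the 6 members with a mean of 100 counts or more passed, against 0.718% of all genes at that depth. With 1 library against 1 there is no p-value, and a 95% interval given below is exact (Clopper-Pearson on the counts of both libraries) and covers counting error only.

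The log2 ratio of replicate 1 over replicate 2 was 1.73 for H2-Q6 (interval 0.63 to 3.88), 1.54 for H2-Q7 (0.90 to 2.40), 1.51 for H2-Aa (0.92 to 2.29) and 1.09 for H2-Ea-ps (0.10 to 2.50). It was 0.98 for H2-T23 (0.61 to 1.39), just under 2-fold, 0.60 in the other quantification and 1.12 with scaling by the spike-ins, which moved the median of all genes to 0.14. H2-Ab1 had a ratio of 0.83 (0.18 to 1.59), H2-Q4 of 0.61 (0.30 to 0.95) and H2-K1 of 0.44 (0.27 to 0.61), and these intervals lie above 0. The interval of H2-Eb1 (0.55, -0.09 to 1.27) reached below 0. The even members had ratios of 0.16 (H2-DMa), 0.09 (H2-T22), 0.04 (H2-D1) and 0.02 (H2-Ke6), each with an interval that includes 0.

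H2-Q6 and H2-Q7 were over 2-fold apart in the gene tables alone: in the other quantification their log2 ratios were 0.44 and 0.90. H2-Aa and H2-Ea-ps kept ratios of 1.59 and 1.04 there. With a prior count of 5 in place of 2, H2-Ea-ps fell under 2-fold at 0.92. Summed over its transcripts, H2-Q10 had -0.28 in the gene tables (interval -1.14 to 0.52) and 0.28 in the other quantification. This sum had no settled direction, and the liver genes tested had a median of -3.35. The protein-coding transcripts of H2-Q10, summed, were lower in replicate 1. They had 8.94 and 24.7 counts in the gene tables and 3.80 and 24.3 in the other quantification (replicates 1 and 2). In the gene tables the single transcripts went opposite ways. H2-Q10-202 had 8.94 and 0 counts, and H2-Q10-201 had 0 and 24.7. These are few reads, and no interval was computed for them. Its retained-intron transcript was higher in replicate 1, at 14.4 and 7.85 counts, and 50.6 and 24.3 in the other quantification.

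Summed over members, the 5 classical class II genes had 183 expected counts in replicate 1, against 99 in replicate 2, a log2 ratio of 1.06 (interval 0.70 to 1.43). The 3 DM genes had 120 and 114 counts, a ratio of 0.25 (-0.13 to 0.63). H2-K1 and H2-D1 together had 1738 and 1740 counts, a ratio of 0.18 (0.08 to 0.27). The counting intervals of the class II chains and of DM do not overlap, but most DM counts were those of H2-DMa (99 and 100). The beta chain genes, each under a mean of 10 counts, had ratios of 0.63 (H2-DMb1, -0.65 to 2.26) and 0.60 (H2-DMb2, -0.89 to 2.53). The DM sum thus describes mainly H2-DMa.

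**Figure D2:**
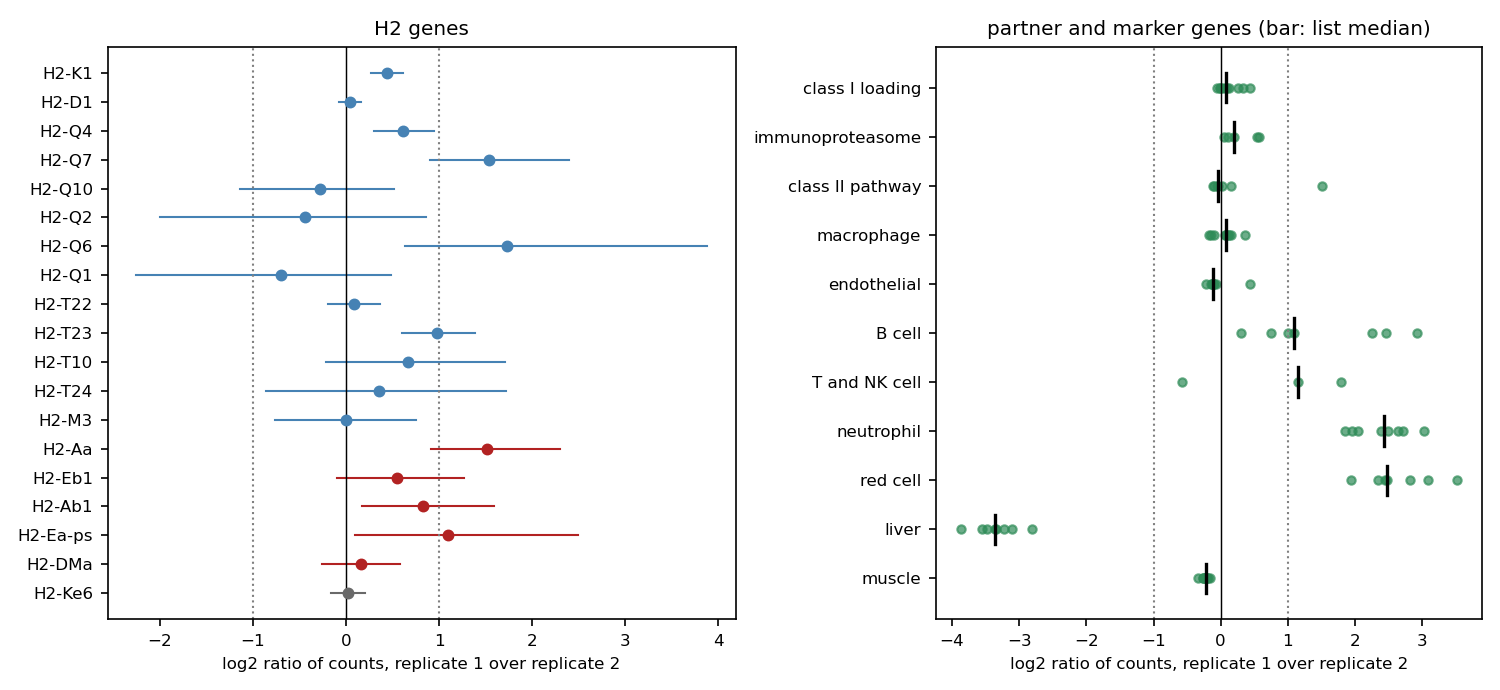
Log2 ratio of counts, replicate 1 over replicate 2, for the 19 H2 genes with a mean of 10 or more counts (left, lines are exact 95% counting intervals) and for genes of the partner and marker lists (right, bars are list medians), with dotted lines at 2-fold. H2-Aa, H2-Q6, H2-Q7 and H2-Ea-ps lie beyond 2-fold, B cell, neutrophil and red cell genes lie to the right, liver genes to the left, and the medians of class I loading and macrophage genes near 0.

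Several B cell markers stood higher in replicate 1 along with the class II chains. Cd74, the invariant chain that escorts class II, had 5.8 TPM in replicate 1 and 2.01 TPM in replicate 2, a log2 ratio of 1.51 (interval 1.14 to 1.95), the same to 2 decimals as H2-Aa. Of the 7 B lymphocyte markers with a mean of 10 counts or more, 4 were over 2-fold higher in replicate 1 and the median ratio was 1.09. Over all genes 2.73% were over 2-fold higher and the median was 0.00. Among genes with a mean of 10 to under 100 counts these were 7.94% and 0.16. All of the 7 lay in that range except Ebf1, which had a ratio of 0.30. Cd79a had 1.21 and 0.12 TPM, and none of the 9 B cell markers was at 0 in both libraries. The summed B cell level was 30.9 TPM in replicate 1 and 23.5 TPM in replicate 2, most of it Ebf1 (25.5 and 21.5 TPM). The 3 T and NK cell markers tested had a median of 1.14, with Trac (14 and 6 counts) and Lck (20 and 5 counts) over 2-fold higher in replicate 1. Cd4, which had the most counts of the 3, was at 22 in replicate 1 and 38 in replicate 2, a log2 ratio of -0.57 (interval -1.44 to 0.18).

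Macrophage markers were even between the libraries. The 10 macrophage markers had a median log2 ratio of 0.08 and none was over 2-fold apart, and their levels summed to 101 TPM in replicate 1, against 97.5 TPM in replicate 2. Of the 9 dendritic markers 2 had a mean of 10 counts or more, with a median log2 ratio of 0.86. Of these 2, Ccr7 was over 2-fold higher in replicate 1 at 0.3 TPM, against 0.07 TPM in replicate 2. Under that mean, in replicates 1 and 2, Batf3 had 15 and 4 counts, Siglech 8 and 2, Flt3 7 and 0 and Itgax 9 and 7. Clec9a had 1 and 1, and Xcr1 had 0 and 1. Zbtb46 was the only dendritic marker above 1 TPM (4.83 and 4.64 TPM), and Cd209a was at 0 in both libraries. The part of blood, marrow or liver RNA in the H2 ratios was not tested.

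All 10 genes of the class I loading list were detected, with a median log2 ratio of 0.08 and none over 2-fold apart. B2m, which encodes beta-2-microglobulin, had 73.6 TPM in replicate 1 and 70.4 TPM in replicate 2. The folding chaperone gene Calr had 140 and 142 TPM, and the disulfide isomerase gene Pdia3 had 82.8 and 80.9 TPM. These stood above H2-K1 and H2-D1. The peptide transporter genes stood below both, Tap1 at 2.46 and 1.7 TPM and Tap2 at 4.21 and 3.22 TPM, and the tapasin gene Tapbp had 21.2 and 16.7 TPM. Tap1 had a log2 ratio of 0.44 (interval 0.13 to 0.76), like that of H2-K1, and the trimming peptidase gene Erap1 had 0.34 (0.14 to 0.53). All 5 genes of the immunoproteasome list were detected, with a median ratio of 0.20. Of its catalytic subunit genes, Psmb10 had 11.6 and 11.5 TPM, Psmb8 had 3.58 and 2.34 TPM and Psmb9 had 2.4 and 1.59 TPM. Of the 9 class I-like genes outside the H2 name 6 were detected, led by the antibody receptor gene Fcgrt (33.4 and 33.7 TPM), with a median ratio of 0.08. The 9 endothelial markers had a median ratio of -0.12, with none over 2-fold apart.

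On the class II side, 6 of the 7 genes of the chaperone and protease list were detected, led by the proteases Ctsl (71.9 TPM in replicate 1, against 69.0 TPM in replicate 2) and Lgmn (47.9 and 49.7 TPM). Cd74 was the only gene of this list over 2-fold apart. Of the 13 MHC regulator genes 11 were detected and none was over 2-fold apart. The 2 below were the master regulators: Ciita, of class II, had 0.07 and 0.11 TPM from 9 and 8 counts, and Nlrc5, of class I, had 0.47 and 0.25 TPM from 68 and 43 counts. Rfx5, Rfxap and Rfxank, whose products bind the X box, had means of 6.23, 12.1 and 5.98 TPM. Of the 8 class I receptors of killer and myeloid cells none was detected in both libraries. Of the 2 with a mean of 10 counts or more, Lilrb4a was over 2-fold higher in replicate 1. It had 86.9 and 33.5 counts, a log2 ratio of 1.52 (interval 0.98 to 2.20). The other, Pirb, had a ratio of 0.27 (-0.21 to 0.77). Of 12 interferon-stimulated genes 5 were detected. The 8 with a mean of 10 counts or more had a median log2 ratio of 0.06, and Ifit3 was the only one of these over 2-fold higher in replicate 1 (0.82 and 0.25 TPM).

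The H2 genes were quantified by the authors in a second way, and the Q region was where the results parted most. Counts of this other quantification were summed per gene and set beside the gene tables, within each library. The 6 Q region genes had 308 expected counts in the gene tables of replicate 1, against 495 in the other quantification, and 227 against 346 in replicate 2, ratios of 0.622 and 0.656. H2-K1 and H2-D1 had ratios of 0.951 and 0.966, the T region 0.91 and 0.888, and class II 0.986 and 0.95 in replicates 1 and 2. Within class II, H2-DMb2 had 0.602 and 0.538, and H2-Ea-ps had 1.4 and 1.43. With counts scaled to the same total, the median log2 ratio over all 19736 genes tested was -0.16 and -0.15. Over the Q region members it was -0.33 and -0.56. H2-Q7 had 60.4 counts in the gene table and 134 in the other quantification of replicate 1, and 21.6 and 78.8 in replicate 2. H2-Q4 had 189 and 281 counts in replicate 1, and 139 and 190 in replicate 2. H2-Q10 had 23.4 and 54.4 in replicate 1, and 32.5 and 48.6 in replicate 2. For H2-Q7 and H2-Q10 the larger gap lay in retained-intron transcripts, and for H2-Q4 in the protein-coding one. Retained-intron transcripts of H2-Q7 had 36.0 and 97.8 counts in replicate 1, and 6.5 and 54.7 in replicate 2. Its protein-coding transcripts had 24.4 and 36.3, and 15.1 and 24.2. The protein-coding transcript of H2-Q4 had 136 and 234 in replicate 1, and 107 and 151 in replicate 2.

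H2-Q1 and H2-Q2 went the other way. In replicate 1 H2-Q1 had 8.1 counts in the gene table and 4.01 in the other quantification, and in replicate 2 it had 15.6 and 5.47. H2-Q2 had 8 and 3 counts in replicate 1, and 13 and 8.01 in replicate 2. Classical class II genes differed less and in both directions. H2-Aa had 69 and 80.1 counts in replicate 1, and 26 and 28.0 in replicate 2. H2-Ea-ps had 21 and 15 counts in replicate 1, and 10 and 7 in replicate 2. H2-DMb1 and H2-DMb2, which share sequence, changed order by counts. H2-DMb1 was 1.22 and 1.46 times H2-DMb2 by expected counts in replicates 1 and 2, and 0.665 and 0.544 times by counts of the other quantification. By TPM H2-DMb1 was the higher in both, 1.31 and 1.93 times H2-DMb2 in the gene tables and 1.7 and 1.11 times in the other quantification.

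**Figure D3:**
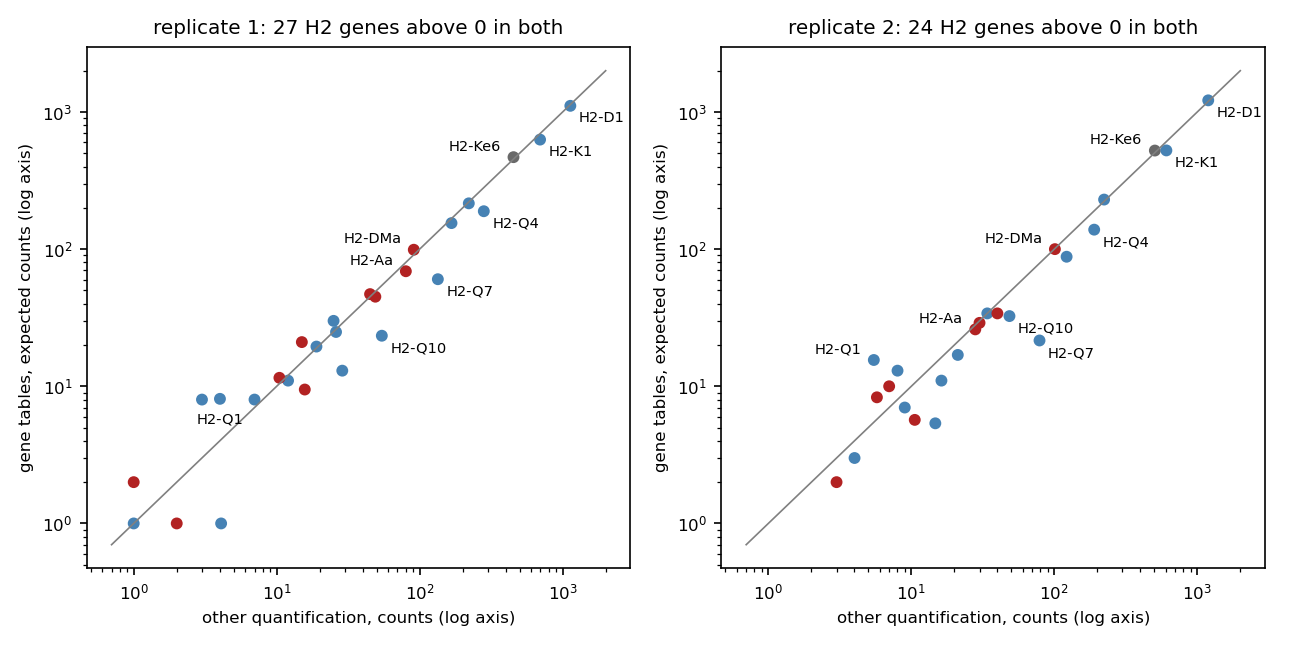
Expected counts in the gene tables against counts in the other quantification of the same reads, on log axes, for the H2 genes above 0 in both (27 in replicate 1, 24 in replicate 2), with the line of equality, blue for class I, red for class II and grey for H2-Ke6. H2-D1 and H2-Ke6 lie near the line, H2-Q4, H2-Q7 and H2-Q10 lie below it in both libraries, and H2-Q1 lies above it.

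By the call used here, a gene counted as different when the ratio of TPM, with 0.1 TPM added, was over 2-fold in the same direction in both libraries. Of the 21 members with a mean of 10 counts in either table, 6 were lower in the gene tables (H2-Ke6, H2-Q4, H2-Q7, H2-T24, H2-DMb2 and H2-Ab1) and 0 were higher. Over all 19736 genes tested 23.9% were lower and 2.37% higher, so this count is near the background. TPM depends on the effective length, which was the length minus 99 bases in the gene tables and minus 349 and 351 bases in the other tables. The median log2 ratio over all genes was -0.84 in replicate 1 and -0.78 in replicate 2. Relative to that median, 0 members were lower and 1 was higher (H2-Q1), beside 6.78% and 2.97% of all genes. With counts scaled to the same total, 1 of the 21 was lower, H2-Q7, with log2 ratios of -1.19 and -1.83, and 0 were higher, beside 10.3% and 3.17% of all genes.

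The gene tables carry a posterior SD, the quantification's own estimate of how far reads could be moved between genes. For H2-Q7 it was 2.32 counts in replicate 1 and 2.13 in replicate 2, while the other quantification lay 73.7 and 57.3 counts away. It was 1.65 and 1.48 counts for H2-Q4, and 0 for H2-Aa, H2-Ab1, H2-Eb1 and H2-DMa in both libraries. For H2-Q4 and H2-Q7 the distance between the quantifications thus exceeded the stated SD many times over.

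Shared sequence was measured as the share of 31-base words of a gene's transcripts, read on the transcript strand, that also occur in a transcript of another gene. Over 14350 genes with a protein-coding transcript and a mean of 10 counts or more, the median share was 0.337% and 8.01% of genes exceeded 20%. The median of the 26 class I members was 23.2%, with 16 over 20%, and that of the 10 class II members was 0.55%, with 2 over 20% (H2-DMb1 and H2-DMb2). H2-T22 shared 51.0% and H2-T10 50.7%, nearly all with each other. H2-Q6 shared 50.3%, mostly with H2-Q4 and H2-Q7, and H2-Q7 shared 39.1%, led by H2-Q10. H2-K1 shared 22.8% and H2-D1 26.7%, each most with the other. H2-Aa, H2-Ab1 and H2-Eb1 shared 0.833%, 0.267% and 1.06%.

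With words of 100 bases, near the length of a read, the class I median was 0.00% and the highest class I share was 12.0%, that of H2-Q7. The longest identical run was 265 bases between H2-Q7 and H2-Q6, 221 between H2-DMb1 and H2-DMb2, 164 between H2-T22 and H2-T10, 91 between H2-K1 and H2-D1, and 11 between H2-Aa and H2-Ea-ps. H2-Ke6 had the highest share of any member, 76.1% of 31-base words, all with the readthrough gene Gm20427 (chosen after its values were seen), which held 191 expected counts in replicate 1, against 152 in replicate 2.

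Shared sequence and the difference between quantifications were set side by side. Over the 21 members, the size of the mean log2 count ratio had a Pearson correlation of 0.17 and a Spearman correlation of 0.21 with the share of 31-base words, a description across genes of the same 2 libraries. The 13 members over 20% had a median size of 0.57, and the 8 others had 0.22. H2-Ke6 and H2-T22 shared much and were counted alike, and H2-T24 shared 6.43% and differed by -1.09 and -0.54 (log2, replicates 1 and 2). Mapping of CAST/EiJ sequence that differs from the reference was not analysed here.

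**Figure D4:**
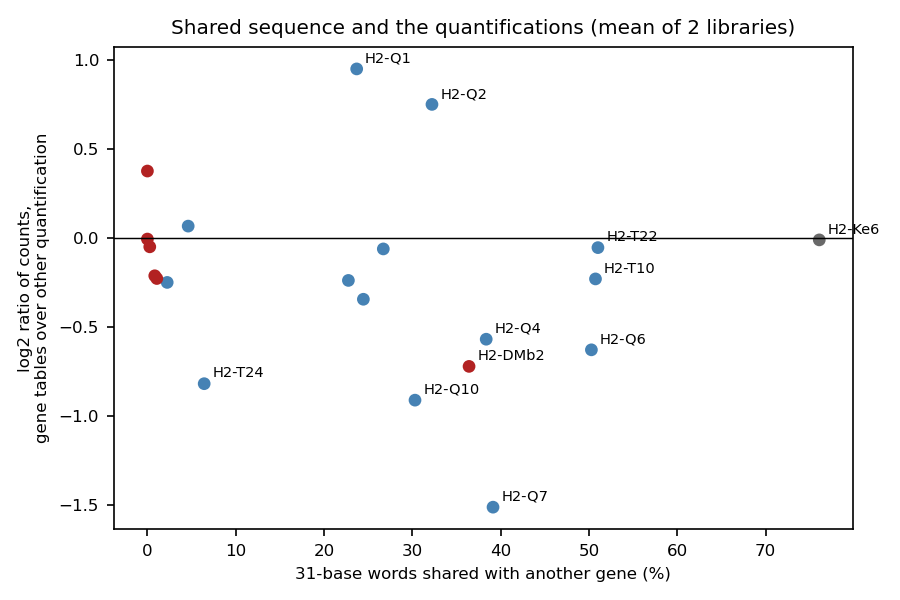
Share of 31-base words found in another gene against the log2 ratio of counts, gene tables over other quantification (mean of both libraries), for the 21 H2 genes with a mean of 10 counts in either table, blue for class I, red for class II and grey for H2-Ke6. Class II genes sit at the left, H2-Ea-ps above 0 and the others nearer to it, except H2-DMb2, which lies further right (36.4%) and below 0. H2-Q7, H2-Q1, H2-Q10 and H2-T24 lie furthest from 0, with H2-T22 and H2-Ke6 near 0 despite high sharing.

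Outside the H2 name, the gene that shares most 31-base words with H2-Bl, Gm10499 (chosen after its values were seen), was further apart than any member with a mean of 10 counts. It had 3 expected counts in the gene table and 57.1 counts in the other quantification of replicate 1, and 1 and 36.8 in replicate 2.

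The transcripts that carried H2-K1 differed between the quantifications, those of H2-D1 much less. H2-D1-202, a protein-coding transcript of 2102 bases, took 87.7% ± 2.6 of H2-D1 TPM in the gene tables and 89.9% ± 8.97 in the other quantification (SD, n = 2). H2-K1-215, a retained-intron transcript of 457 bases, took 50.1% of H2-K1 TPM in replicate 1 and 52.5% in replicate 2 in the gene tables, and 0% in both libraries in the other quantification. By expected counts it took 21.4% and 22.7%, so a short transcript weighed more in TPM than in reads. The protein-coding transcripts of H2-K1 took 41.7% and 42.4% of its TPM in the gene tables, and 85.5% and 91.1% in the other quantification. Counting only protein-coding transcripts, H2-K1 was 0.555 and 0.411 times H2-D1 in the gene tables, and 1.05 and 0.762 times in the other quantification, in replicates 1 and 2.

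Class II transcripts rested on few reads. H2-Eb1-205, annotated for nonsense-mediated decay, took 44.2% and 64.7% of H2-Eb1 TPM in the gene tables of replicates 1 and 2, and 41.7% and 59.6% in the other quantification. Protein-coding transcripts of H2-Eb1 took 0% and 19.6% in the gene tables, and 27.6% and 28.3% in the other quantification. For H2-Ab1 the protein-coding share was 89.2% and 100% in the gene tables, and 52.4% and 13.9% in the other quantification. H2-Aa-201, protein coding, took 80.1% and 100% in the gene tables, and 95.4% and 86.5% in the other quantification.

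**Figure D5:**
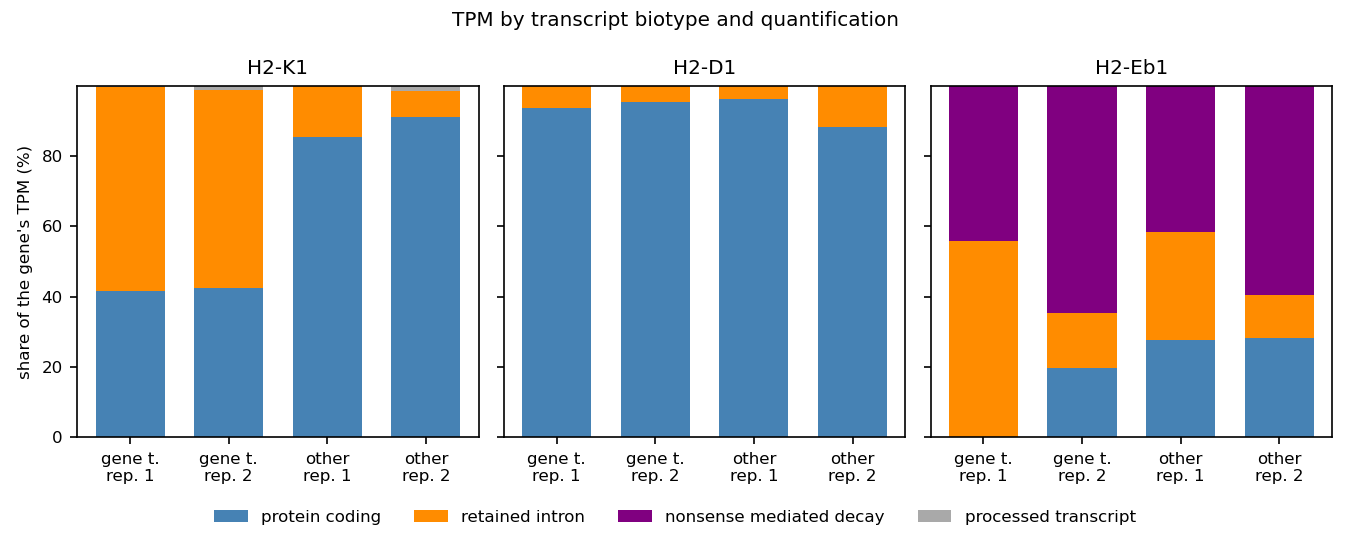
Share of a gene's TPM (%) by transcript biotype for H2-K1, H2-D1 and H2-Eb1, in the gene tables and the other quantification of replicates 1 and 2. Retained-intron transcripts take over 56% of H2-K1 TPM in the gene tables and under 15% in the other quantification, whereas protein-coding transcripts take over 88% of H2-D1 TPM in all 4 bars.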

How the data were processed

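Total RNA-seq of 2 libraries was analysed from the tables the authors deposited. Per the file headers, gene and transcript tables give expected counts, which need not be whole, and TPM, and other transcript tables give estimated counts and TPM of a second quantification, summed here per gene. Per the accompanying notes the build was mm10 with GENCODE M21. Not given in the sources used here: the aligner, both programs and how strand was treated. Overlapping and near-identical genes are therefore uncertain. Alleles were not separated. Effective lengths came from the deposited tables.

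Expected counts were rounded and scaled by trimmed mean of M values (edgeR 4.0.16, R 4.3.3) with a prior count of 2. Calls went by size alone, over 2-fold at a mean of 10 counts or more. The ratio step was tested on simulated data. Word sharing used the GENCODE transcripts, and the rest ran in Python 3.11.15 with pandas 2.3.3, numpy 2.4.6, matplotlib 3.10.9 and scipy 1.17.1. Alternatives were DESeq2 1.42.0 size factors, other scalings, thresholds, pseudocounts and word lengths, and each library alone. The H2 genes and lists were chosen with earlier results of these data known. Of 143 list symbols 142 matched. Every member was accounted for, and list genes named were the 4 highest by TPM, those under 1 TPM and those over 2-fold, with Tap1, Tap2, Tapbp, Erap1, Psmb9, Psmb10, Trac, Lck, Cd4, Rfx5 and Rfxank added after their values were seen. Intervals at 95% and the floor of 3 counts cover only counting error, as PCR copies cannot be told from separate molecules.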

Additional observations from a re-analysis of the deposited data

How the results depend on the processing

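Of the 81 values recomputed under an alternative, 62 stayed within their limits and 19 moved. Most are counts, sums and shares, which cannot change sign. Among the replicate ratios of the 19 members, that of H2-Q10 (-0.28) was 0.28 and that of H2-Ke6 (0.02) was -0.01 in the other quantification, and that of H2-M3 (-0.00) was 0.04 by library size and 0.13 by the spike-ins. The other quantification moved the summed class I level to 98.6 TPM (59.1 in the gene tables), the class II level to 18.5 TPM (9.08), the share of H2-K1 and H2-D1 in class I to 70.4%, the Q region share to 12.2%, the members over 2-fold between replicates to 2 (4) and the share of H2-K1-215 to 0%. Of the 4, H2-Q7 had 0.90 and H2-Q6 0.44 there. Expected counts in place of TPM gave shares of 90.4% for class I, 71.6% for H2-K1 and H2-D1 and 11.0% for the Q region. Detected members numbered 8 by the rule, 3 at 5 TPM and 19 at a mean of 10 counts. At a mean of 100 counts, 0 members were over 2-fold between replicates and 3 between quantifications. The count between quantifications was 6 by the rule, 2 with 1 TPM added, 1 by scaled counts and 1 relative to the median of all genes. With words of 100 bases, 0 class I members shared over 20%, against 16 with 31. With each library alone, class I summed to 53.5 to 64.8 TPM, class II to 6.79 to 11.4 TPM, detected members numbered 8 to 11, and members apart between quantifications numbered 7. The causes were not tested. Members by the annotation's gene type and the median-relative ratio were added after the data were seen, and the gene type left 8 detected. Leaving out a library gives no replicate ratio. No paired analysis was possible because the series holds 1 group. Depth limits members under about 100 counts, where 10.7% of all genes were over 2-fold apart.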
